A study of Homo sapiens with 12 samples.

Results

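GAGE7, XAGE1A, XAGE3, PAGE1, PAGE2, PAGE4, CTAG1A and CTAG2 belong to the X-linked cancer-testis gene families GAGE, XAGE, PAGE and CTAG. They were chosen by name, as every probe whose gene name in the scanner files equals one of the 8 symbols. Each symbol had exactly 1 probe, so the description rests on 8 of the 32080 gene symbols on the array. The RNA came from Colo320DM, a human colorectal cancer cell line, grown as 6 stable clones. Of these, 3 control clones carried the pcDNA6.2-GW/EmGFP-miR-neg plasmid and 3 clones carried a TET1 knockdown vector that encodes an artificial microRNA. Knockdown clones 1 and 2 carried the microRNA miTET1-1 and clone 3 carried miTET1-2, a difference that the sample labels do not give and that cannot be told apart from clone 3 itself. TET1 is an enzyme that oxidises 5-methylcytosine. All 6 were selected with G418, and each line is a single clone, so a difference between lines may belong to the clone rather than to the vector. Each clone gave 1 mock-treated array and 1 array of cells kept in 1 µM 5-aza-2'-deoxycytidine for 72 h, with drug and medium renewed daily. This cytidine analog, called 5-aza-dC here, traps DNA methyltransferases. The 12 arrays thus form 4 groups of 3, namely control mock, knockdown mock, control 5-aza-dC and knockdown 5-aza-dC. Because the same clones were measured before and after treatment, n = 3 counts clones in every group.

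Cancer-testis genes are transcribed in testicular germ cells, some also in placenta, and are silent in most other adult tissues. Their promoters carry dense DNA methylation in most somatic cells, and inhibitors of DNA methyltransferases are known to switch many of them on in tumour cells. The GAGE, XAGE and PAGE genes are related by descent and encode small acidic proteins, and CTAG1A, CTAG1B and CTAG2 encode NY-ESO-1 and LAGE-1, tumour antigens that patients' T cells and antibodies can recognise. Several of these genes exist as near-identical copies.

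The probes are 60 bases long and lie on the X chromosome (hg19, as given in the files). The GAGE7 probe lies at chrX:49218341-49218400 on the plus strand, and the PAGE1 and PAGE4 probes, whose spans include introns, at chrX:49458768-49459333 (minus strand) and chrX:49597200-49598454 (plus strand). The XAGE1A probe lies at chrX:52241141-52241200 (plus strand), the XAGE3 probe at chrX:52893821-52893880 (minus strand) and the PAGE2 probe at chrX:55117033-55117813 (plus strand, with an intron in the span). The CTAG1A probe at chrX:153815008-153815067 (plus strand) and the CTAG2 probe at chrX:153880418-153880477 (minus strand) lie near the far end of the long arm. All are designed against transcripts and are therefore exonic. Not every signal belongs to a single gene. The GAGE7 probe is listed for 4 transcript accessions, 2 of which RefSeq now names GAGE10 and GAGE12F. The XAGE1A probe is listed for XAGE1A and XAGE1B, the CTAG1A probe for CTAG1A and CTAG1B, and the CTAG2 probe for CTAG2, CTAG1A and CTAG1B. The probes for XAGE3, PAGE1, PAGE2 and PAGE4 are listed for 1 gene symbol each. The 3 probes below are shown because the GAGE, XAGE and PAGE signals described next are read through them. They are given in lower case as in the array design.
GAGE7: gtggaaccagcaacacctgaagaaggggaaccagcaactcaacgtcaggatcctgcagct
XAGE1A: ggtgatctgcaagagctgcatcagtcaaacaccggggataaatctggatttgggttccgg
PAGE2: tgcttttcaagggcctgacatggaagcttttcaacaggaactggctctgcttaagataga

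RefSeq (GRCh38.p14) promoter windows, from 250 bases before to 50 bases after the transcription start, were found under 5 of the 8 symbols, namely XAGE1A, XAGE3, PAGE1, PAGE2 and PAGE4. A pair of genes that rose after 5-aza-dC (XAGE1A, PAGE2) and a pair that overlapped between treated and mock clones (PAGE1, PAGE4) are printed, with capitals marking each CG dinucleotide, the site that DNA methyltransferases methylate. XAGE1A lies at chrX:52495627-52495926 (plus strand), PAGE2 at chrX:55088768-55089067 (plus), PAGE1 at chrX:49695935-49696234 (minus) and PAGE4 at chrX:49829010-49829309 (plus).
XAGE1A: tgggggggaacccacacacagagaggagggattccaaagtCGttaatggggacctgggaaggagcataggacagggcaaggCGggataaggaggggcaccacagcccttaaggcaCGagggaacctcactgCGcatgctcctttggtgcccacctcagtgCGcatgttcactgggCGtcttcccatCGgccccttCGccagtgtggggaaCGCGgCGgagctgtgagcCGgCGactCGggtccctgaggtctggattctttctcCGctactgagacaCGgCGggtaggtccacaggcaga
PAGE2: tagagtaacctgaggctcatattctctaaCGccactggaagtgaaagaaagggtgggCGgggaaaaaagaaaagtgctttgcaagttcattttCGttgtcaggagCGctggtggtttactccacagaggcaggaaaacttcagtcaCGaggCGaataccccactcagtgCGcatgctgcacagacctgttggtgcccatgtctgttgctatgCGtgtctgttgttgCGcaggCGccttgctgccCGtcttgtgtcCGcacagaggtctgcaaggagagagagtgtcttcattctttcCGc
PAGE1: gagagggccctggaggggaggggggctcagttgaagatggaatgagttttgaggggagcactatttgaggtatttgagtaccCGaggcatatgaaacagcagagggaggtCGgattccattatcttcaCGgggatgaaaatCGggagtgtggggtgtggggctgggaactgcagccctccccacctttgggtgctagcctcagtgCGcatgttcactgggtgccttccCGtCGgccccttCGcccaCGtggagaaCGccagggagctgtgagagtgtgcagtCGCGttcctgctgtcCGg
PAGE4: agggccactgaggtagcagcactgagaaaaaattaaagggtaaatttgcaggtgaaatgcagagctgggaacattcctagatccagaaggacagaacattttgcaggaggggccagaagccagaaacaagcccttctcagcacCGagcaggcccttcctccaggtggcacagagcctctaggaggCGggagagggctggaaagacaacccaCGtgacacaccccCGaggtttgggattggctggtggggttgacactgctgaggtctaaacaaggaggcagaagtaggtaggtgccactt
The XAGE1A window held 17 CG dinucleotides, the PAGE2 and PAGE1 windows 13 each, the first XAGE3 window 14 and the PAGE4 window 4. Over all 35116 promoter windows the median was 14, and 46.0% had at least as many as XAGE1A whereas 75.5% had at least as many as PAGE4. The window of XAGE1A was identical to that of XAGE1B over all 300 bases, and PAGE2 and its relative PAGE2B shared 81.3% of aligned positions. The letters TGCGCATG, noticed in these windows and then searched on both strands (the reverse complement reads CATGCGCA), occurred 2 times in XAGE1A and 1 time each in PAGE2, PAGE1 and the first XAGE3 window, and had no match in either PAGE4 window. They occurred in 2.18% of all windows. PAGE1 and the first XAGE3 window thus shared both features with genes that rose. The second XAGE3 window held 5 CG dinucleotides and had no match. The part of these features in the response was not tested. Methylation of these promoters was not analysed here.

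All signals below are log2 values relative to the 75th percentile of the same array, so 0 is that percentile and 1 unit is a doubling of signal. They compare samples within 1 probe and not different genes. A spot is called well above background by the scanner software, and the lowest such signal lay between -4.96 and -4.16 on the 12 arrays, so values below about that level are bounds. Because bulk RNA was measured, fewer expressing cells and less RNA per cell cannot be told apart. The 75th percentile itself lay between 360.6 and 541.8 intensity units, between 45.7% and 52.9% of probes were well above background, and no spot was saturated. The arrays lay on 2 slides. Slide 1 held mock control clones 1 and 2, mock knockdown clones 1 to 3 and treated knockdown clones 1 and 3, and slide 2 held the other 5 arrays. The brightest TET1 probe read 4.01, 3.65 and 4.05 in mock control clones 1 to 3 and 3.01, 2.92 and 2.99 in mock knockdown clones 1 to 3, a difference of -0.93 (SE 0.19, limma adjusted p = 0.28) with no overlap. After 5-aza-dC it read 3.48, 3.79 and 3.56 in control clones and 2.39, 3.72 and 2.79 in knockdown clones, so the treated groups overlapped through knockdown clone 2. On the other 2 TET1 probes every treated knockdown clone read below every treated control clone. The differences were -1.73 (SE 0.31, limma adjusted p = 0.13) and -1.04 (SE 0.20, adjusted p = 0.13). In mock cells these probes differed by -1.35 (SE 0.26, adjusted p = 0.24) without overlap and by -1.08 (SE 0.37, adjusted p = 0.41) with overlapping groups. Of 8 colorectal epithelial markers, KRT8, KRT18, KRT20 and CDX2 were well above background on all 12 arrays, EPCAM on 10, KRT19 on the 6 treated arrays alone, VIL1 on 1 and CDH1 on none. Of 8 germ cell markers, DDX4 and POU5F1 were detected on all 12 arrays and DAZL on the 6 treated arrays alone, whereas the sperm genes PRM1, TNP1 and ACRV1 were detected on 1 array at most and PRM2 and NANOG on 6. Of 5 trophoblast markers HLA-G was detected throughout, CGA on 1 array, CGB on 4, and PSG1 and ERVW-1 on none. Of 4 markers of other cells PTPRC and COL1A1 were detected on all 12 arrays, and PECAM1 and COL1A2 on none. Of these markers KRT19 (3.77), EPCAM (3.75), DAZL (6.36), POU5F1 (1.00) and COL1A1 (1.98) rose with 5-aza-dC over all clones (log2 changes, limma adjusted p between 9.1e-06 and 0.017). KRT19 and DAZL entered this test through the treated arrays alone. Their changes rest on background readings in mock cells and, with their adjusted p values, are descriptions. The part of other cell states in the results below was not tested.

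In mock-treated cells PAGE1 was well above background in 6 of 6 clones and XAGE3 in 5, whereas GAGE7, XAGE1A, PAGE2, PAGE4, CTAG1A and CTAG2 were so in 2 to 4. Mock control clone 1 had 8 of 8 genes well above background, the other 5 mock clones between 1 and 5. CTAG1A, which encodes NY-ESO-1, read 1.59 in mock control clone 1 but -6.52 and -5.73 in control clones 2 and 3, and -6.77, -3.86 and -7.06 in knockdown clones 1 to 3. Control clone 1 was thus 5.45 log2 units above the next mock clone, knockdown clone 2, and the other 4 clones were not well above background. CTAG2, the LAGE-1 gene, read 0.05 in control clone 1, -4.01 and -6.18 in control clones 2 and 3, and -4.44, -4.25 and -5.50 in the knockdown clones. XAGE1A read -0.33 in control clone 1, -4.13 and -6.48 in control clones 2 and 3, and -6.14, -6.62 and -7.06 in knockdown clones 1 to 3. In both genes only control clones 1 and 2 were well above background, and clone 1 led the next clone by 4.06 for CTAG2 and 3.80 for XAGE1A. The CTAG1A and CTAG2 probes share listed targets, so they are not separate observations of the same clone. GAGE7 and PAGE4 were also highest in control clone 1, but by 0.69 and 0.07 only, and PAGE1 and PAGE2 were highest in knockdown clone 3 and XAGE3 in knockdown clone 1. Among 34 other X-linked cancer-testis genes that were well above background on at least 3 arrays, control clone 1 was the highest mock clone for 12 and had 22 well above background, against 14 to 21 in the other mock clones.

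**Figure D1:**
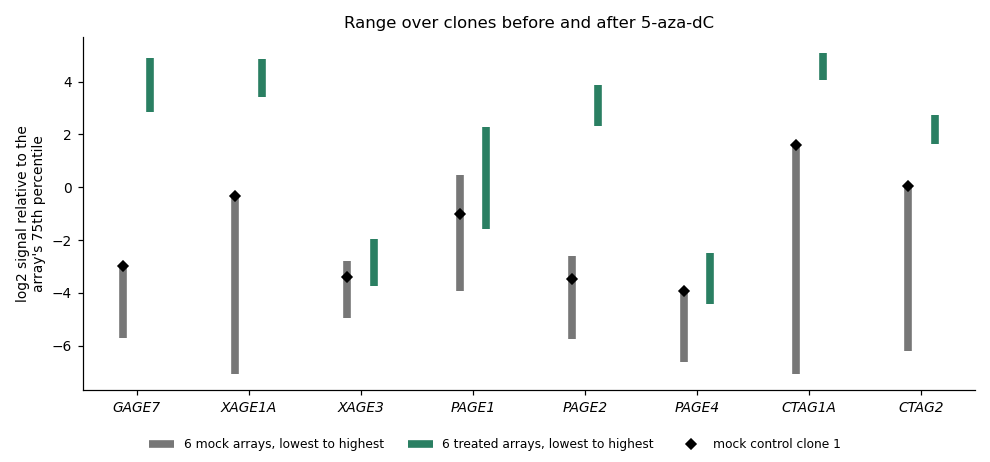
Range of the log2 signal relative to the array's 75th percentile (y axis) for each gene (x axis), over the 6 mock arrays (grey bars, lowest to highest) and the 6 treated arrays (green bars), with mock control clone 1 as a diamond. For GAGE7, XAGE1A, PAGE2, CTAG1A and CTAG2 the green bar lies wholly above the grey bar and is shorter. The low ends of these grey bars are readings not well above background, so bar lengths do not compare measured spreads. The diamond sits at the top of the grey bar for XAGE1A, CTAG1A and CTAG2.

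After 5-aza-dC, GAGE7, XAGE1A, PAGE2, CTAG1A and CTAG2 were well above background in all 6 clones, and each read higher in every treated array than in any mock array. Over all clones the mean change of these 5 genes was between 6.30 (CTAG2) and 9.22 (CTAG1A) log2 units. Of the 6 mock arrays, PAGE2 was well above background on 4, GAGE7 on 3, and XAGE1A, CTAG1A and CTAG2 on 2 each. These changes therefore rest in part on background readings. Under the alternative settings the change was as low as 4.13 for CTAG2 and 6.56 for CTAG1A. PAGE1, PAGE4 and XAGE3 differed by between 0.60 and 1.86 with overlapping groups. Of the 8 genes, 5 passed the test as higher (limma over all 12 arrays, Benjamini-Hochberg adjusted p below the threshold of 0.05), where 7.24% of the 27281 probes tested did. Several of the 5 passed the filter on dim probes largely through the treated arrays, where they are high, so this count is a description. All treated above all mock arrays held for 3.79% of the probes tested. The fit had no clone term, although each clone gave a mock and a treated array. With the clone as a block PAGE1 (limma adjusted p = 0.019) and PAGE4 (adjusted p = 0.0092) passed as well, where 2745 of 27280 probes were called higher.

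GAGE7, a member of the tandemly repeated GAGE cluster, read -2.97, -5.73 and -5.18 in mock control clones 1 to 3 and -4.31, -5.28 and -3.66 in mock knockdown clones 1 to 3. In treated control clones 1 to 3 it read 4.88, 2.84 and 3.01, and in treated knockdown clones 4.70, 4.22 and 4.21. The lowest treated value was 5.82 units above the highest mock value. The fitted change was 8.20 (SE 0.86, adjusted p = 0.0052) in control clones and 8.80 (SE 0.43, adjusted p = 2.9e-04) in knockdown clones. Since 1 of 3 mock control and 2 of 3 mock knockdown arrays were well above background, these changes rest in part on readings at background.

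XAGE1A rose from its uneven mock levels to 4.85, 3.40 and 3.71 in treated control clones 1 to 3 and to 4.59, 3.61 and 3.89 in treated knockdown clones. Mock clones that differed by 6.72 log2 units from lowest to highest lay within 1.45 of each other after treatment. Only 2 of the 6 mock arrays were well above background, so the mock difference includes background readings. In knockdown clones, where no mock array was well above background, XAGE1A was at least 378-fold higher after treatment. It entered that test through the treated arrays alone, so its adjusted p of 1.1e-04 is given as a description. In control clones, with 2 of 3 mock arrays well above background, the change was 7.63 (SE 1.47, adjusted p = 0.0395). XAGE3, the other XAGE gene, read -3.39, -2.84 and -4.96 in mock control clones, -2.80, -3.80 and -3.31 in mock knockdown clones, -2.30, -3.59 and -3.73 in treated control clones and -1.96, -3.58 and -2.37 in treated knockdown clones. Its groups overlapped throughout, it was lower after treatment in control clone 2, and its change was 0.53 (SE 0.64, adjusted p = 0.61) in control and 0.67 (SE 0.48, adjusted p = 0.72) in knockdown clones. The XAGE3 value is the mean of 10 spots per array, and those of the other 7 genes come from 1 spot.

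PAGE2 read -3.48, -4.39 and -5.74 in mock control clones and -3.85, -4.74 and -2.61 in mock knockdown clones. It rose to 3.87, 2.31 and 2.71 in treated control clones 1 to 3 and to 3.37, 2.85 and 3.02 in treated knockdown clones. The change was 7.50 (SE 0.65, adjusted p = 0.0027) in control and 6.81 (SE 0.53, adjusted p = 0.0013) in knockdown clones, with 2 of 3 mock arrays well above background in each clone type. PAGE1 behaved differently and was well above background on all 12 arrays. It read -1.0, -1.63 and -3.92 in mock control clones and -1.01, -3.71 and 0.46 in mock knockdown clones, then 0.30, -1.43 and -1.58 in treated control and 2.26, -1.10 and 1.87 in treated knockdown clones. Mock knockdown clone 3 was above all 3 treated control clones, and the 6 clones spanned 4.38 log2 units before treatment and 3.84 after it. PAGE4, which is expressed mainly in prostate and placenta, read -3.94, -6.09 and -5.24 in mock control, -6.62, -6.53 and -4.01 in mock knockdown, -2.51, -4.41 and -4.04 in treated control and -4.03, -3.62 and -3.05 in treated knockdown clones. It was well above background on 2 of 6 mock and 4 of 6 treated arrays, so most of its values are near the floor.

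CTAG1A reached 5.07, 4.45 and 4.15 in treated control clones 1 to 3 and 4.07, 4.73 and 4.51 in treated knockdown clones. Its 6 mock clones spanned 8.65 log2 units and its 6 treated clones 1.01. Only 2 of the 6 mock arrays were well above background, so the mock span includes background readings and is not a measured spread. The change was 10.33 (SE 0.84, adjusted p = 0.0015) in knockdown clones, where 1 of 3 mock arrays was well above background. In control clones it was 8.11 (SE 2.07) and did not pass the test (adjusted p = 0.078), with the high mock level of control clone 1 in the group. CTAG2 reached 2.71, 1.90 and 1.64 in treated control and 2.27, 2.21 and 2.74 in treated knockdown clones. It was at least 121-fold higher in knockdown clones, where it too entered the test through the treated arrays alone (adjusted p = 3.1e-04), and in control clones its change was 5.46 (SE 1.48, adjusted p = 0.0895).

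**Figure D2:**
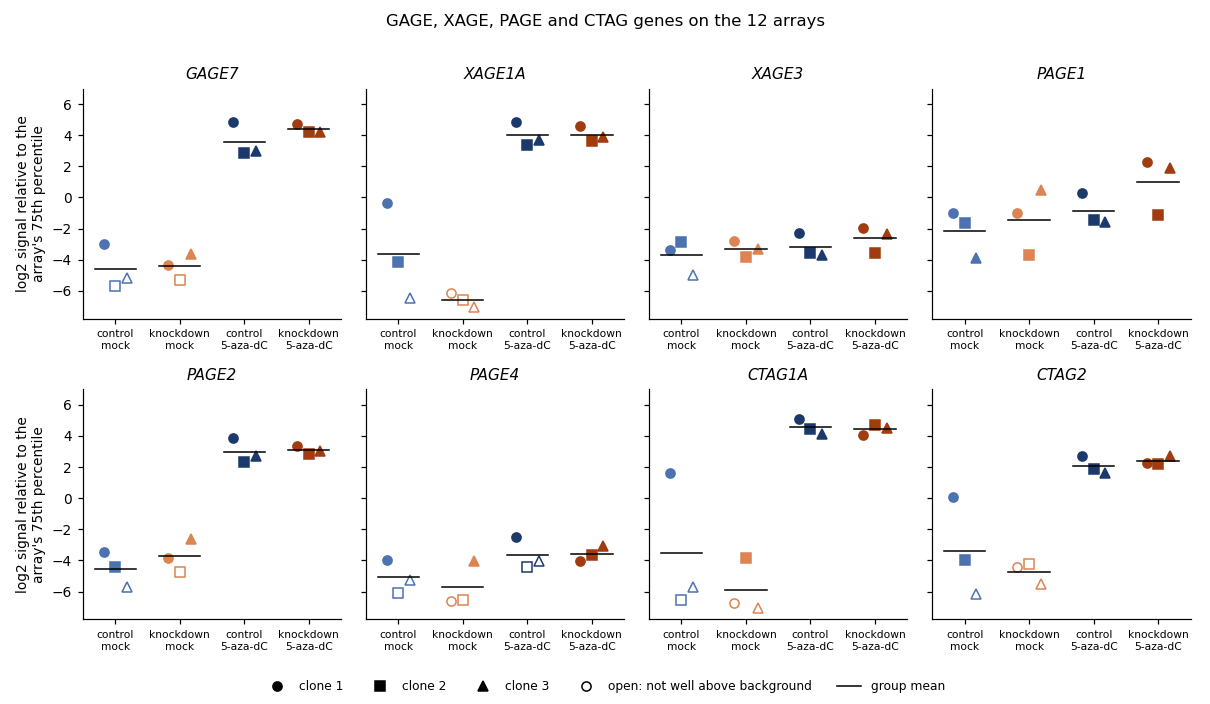
Log2 signal relative to the array's 75th percentile (y axis) on each array of the 4 groups (x axis), 1 panel per gene. Marker shapes give the clone, open markers arrays not well above background, and lines the group means. GAGE7, XAGE1A, PAGE2, CTAG1A and CTAG2 sit low in most mock clones and close together after 5-aza-dC, while PAGE1, PAGE4 and XAGE3 overlap between groups.

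The response differed between clones for some of these genes. Control clone 1, with the highest mock signal for CTAG1A, CTAG2 and XAGE1A, gained 3.48, 2.66 and 5.18 log2 units for these genes. This was the smallest gain of the 6 clones in each. The CTAG2 probe is also listed for CTAG1A and CTAG1B, so its gain may not be that of CTAG2. For GAGE7 the 6 clones gained between 7.85 and 9.50 and for PAGE2 between 5.63 and 8.45. PAGE1 read between 0.19 and 3.28 higher and PAGE4 between 0.96 and 2.91 higher in 6 of 6 clones. XAGE3 lay between -0.74 and 1.23 and was higher in 5 of 6 clones. Gains from a mock array not well above background depend on the background reading.

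**Figure D3:**
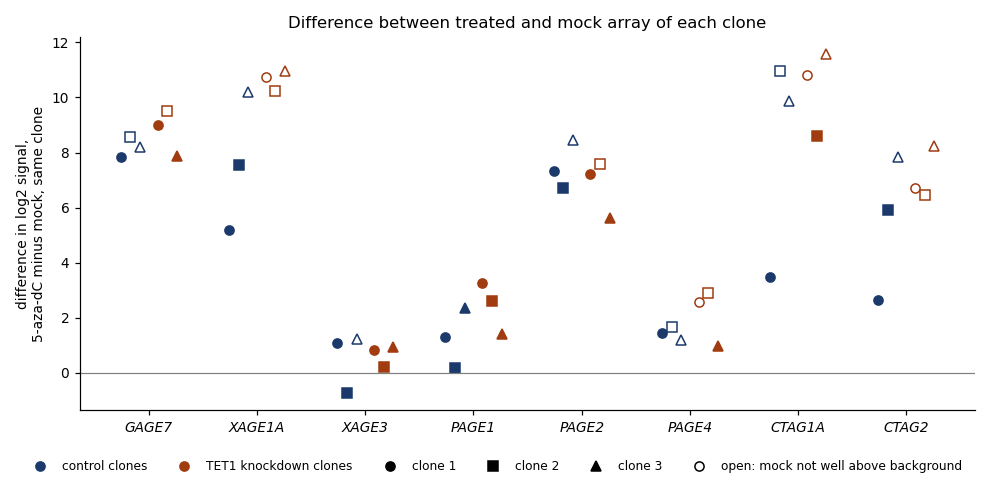
Difference in log2 signal between the treated and the mock array of the same clone (y axis) for each gene (x axis), control clones in blue and TET1 knockdown clones in orange. Open markers show clones whose mock array was not well above background, and the filled blue circles of CTAG1A, CTAG2 and XAGE1A at 3.48, 2.66 and 5.18 are control clone 1.

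Fitted within each clone type, 5-aza-dC raised 3 of the 8 genes in control clones (GAGE7, XAGE1A and PAGE2), where 3.82% of 24631 probes were called higher, and 7 of the 8 were tested. In knockdown clones it raised 5 (GAGE7, XAGE1A, PAGE2, CTAG1A and CTAG2), where 2.05% of 25385 probes were called higher. No gene called in either fit was well above background on 3 mock arrays. Each passed the filter on dim probes only with its treated arrays, and XAGE1A and CTAG2 in knockdown clones through these alone. Both counts, and the adjusted p values of these genes within each clone type, are therefore descriptions too. The median change of the genes tested was 7.50 in control and 6.97 in knockdown clones, beside -0.04 and -0.08 over all probes. With the bounds of XAGE1A and CTAG2 in place of their fitted changes the knockdown median was 6.87. These medians are descriptions for the same reason, and only the knockdown median includes PAGE4. That CTAG1A and CTAG2 passed in knockdown clones alone does not show a difference between clone types, which is tested below. Leaving out control clone 1 or control clone 2 left 0 called in control clones, and leaving out knockdown clone 1 or 3 left 0 in knockdown clones, with 2 clones per group remaining. In these fits hardly any probe of the array was called, namely 2 of 22575, 0 of 22709, 0 of 23712 and 0 of 22992. The log2 change in control clones was then 7.58 without control clone 1 and 7.90 without control clone 2 for PAGE2, 8.86 and 7.69 for XAGE1A, and 8.02 without control clone 2 for GAGE7, which could not be tested without control clone 1. XAGE1A and CTAG2 could not be tested in those knockdown fits, because too few arrays were left well above background, and GAGE7, PAGE2 and CTAG1A stayed positive where tested. Over all clones, with the clone as a block, PAGE1 (adjusted p = 0.019) and PAGE4 (adjusted p = 0.0092) passed as well, which made 7. With the slide as a block PAGE1 (3.30, adjusted p = 0.039) and XAGE3 (1.41, adjusted p = 0.040) passed beside the 5, and with both blocks neither they nor PAGE4 did. The slide block rests on within-slide comparisons alone. For control clones that is treated clones 1 to 3 against mock clone 3 on slide 2, and GAGE7 then missed the threshold (8.76, adjusted p = 0.051).

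Knockdown and control clones were compared to ask whether reduced TET1 goes with another level of these genes. In mock cells 4 of the 8 genes could be tested and 0 were called, where 0.137% of 24750 probes were called in either direction (limma). After 5-aza-dC all 8 were tested and 0 were called, where the background was 0.068% of 24992 probes. None of the genes tested in either of these fits had an unadjusted p under 0.05. The treated group means lay close together for XAGE1A (3.99 ± 0.76 in control and 4.03 ± 0.50 in knockdown clones, SD, n = 3), PAGE2 (2.96 ± 0.81 and 3.08 ± 0.27), CTAG1A (4.56 ± 0.47 and 4.43 ± 0.34) and CTAG2 (2.08 ± 0.56 and 2.41 ± 0.29). GAGE7 averaged 3.58 ± 1.13 in treated control and 4.38 ± 0.28 in treated knockdown clones, a difference within the spread of the clones. PAGE1 differed most, at -0.90 ± 1.05 in treated control and 1.01 ± 1.84 in treated knockdown clones (1.91, SE 0.96, adjusted p = 0.31). Without knockdown clone 2, the only knockdown clone whose treated array lay on slide 2, PAGE1 differed by 2.97 (adjusted p = 0.019), but in that fit 7884 of 24630 probes were called, against 17 with all clones. Within slide 2 the difference was -0.20 (adjusted p = 0.93). In mock cells the group means were -3.65 ± 3.1 and -6.61 ± 0.46 for XAGE1A and -3.55 ± 4.47 and -5.90 ± 1.77 for CTAG1A, control before knockdown. In both genes clone 1 was the highest of the 3 control clones, and neither was tested in the fit of the mock arrays. The fit of all 12 arrays tested all 8 genes in mock cells and called 0. There XAGE1A differed by -2.96 (SE 1.18, limma adjusted p = 0.39) and CTAG1A by -2.34 (SE 1.74, adjusted p = 0.62). With the slide as a block in that fit XAGE1A differed by -3.77 (SE 1.06, adjusted p = 0.18). Mock knockdown arrays of XAGE1A were not well above background, so -2.96, -3.77 and the knockdown mean of -6.61 rest on background readings. As a bound, the control mean of XAGE1A lay at least 0.88 log2 units (1.85-fold) above the knockdown clones. That control mean includes control clone 3, which was itself at background. In each clone type just 1 mock array gave a CTAG1A signal clear of background. The CTAG1A means and difference in mock cells therefore rest largely on background readings too.

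The interaction term, which asks whether the change with 5-aza-dC differs between clone types, called 0 of the 8 genes, where 0.033% of 27281 probes were called. The adjusted p was 0.9999 for each of the 8. The estimate was largest for XAGE1A, whose change was 3.00 log2 units larger in knockdown clones (SE 1.67), and 2.22 (SE 2.47) for CTAG1A. No mock knockdown array of XAGE1A was well above background, so its change there is known only as at least 8.56. In control clones it was 7.63, with 2 of 3 mock arrays well above background. Without control clone 1 the estimate was 1.77 for XAGE1A and -0.092 for CTAG1A.

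Of 34 near relatives listed by name, 7 were on the array. GAGE2B, whose probe is listed for other GAGE transcripts too, read between -2.06 and 0.27 in mock and between 4.52 and 6.38 in treated clones. It rose by 5.52 (SE 0.55, adjusted p = 0.0045) in control and 6.35 (SE 0.58, adjusted p = 0.0026) in knockdown clones, and unlike GAGE7 it was well above background in all 6 mock clones. Both PAGE2B probes rose. The brighter one, listed for PAGE2, PAGE2B and PAGE5, moved from between -3.91 and -1.65 to between 3.85 and 5.21. The dimmer one, listed for PAGE2B and PAGE5 but not PAGE2, was well above background in none of the 6 mock clones and read between 0.86 and 2.32 after treatment, at least 72.0-fold higher in control and at least 51.4-fold higher in knockdown clones. XAGE2B, XAGE5 and PAGE3 were well above background on 4, 1 and 3 of 12 arrays, and GAGE1 on none. XAGE5 and GAGE1 were too dim to be tested. XAGE2B (1.78, SE 0.54, limma adjusted p = 0.053) and PAGE3 (1.57, SE 0.49, adjusted p = 0.059) were not called over all clones. PAGE3 entered that test through the treated arrays alone. Both read higher after treatment in 6 of 6 clones, mostly at background. LAGE3, a broadly expressed gene related to CTAG2 in sequence, read between 4.88 and 5.36 on all 12 arrays and changed by -0.01 (SE 0.12, adjusted p = 0.95) over all clones.

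**Figure D4:**
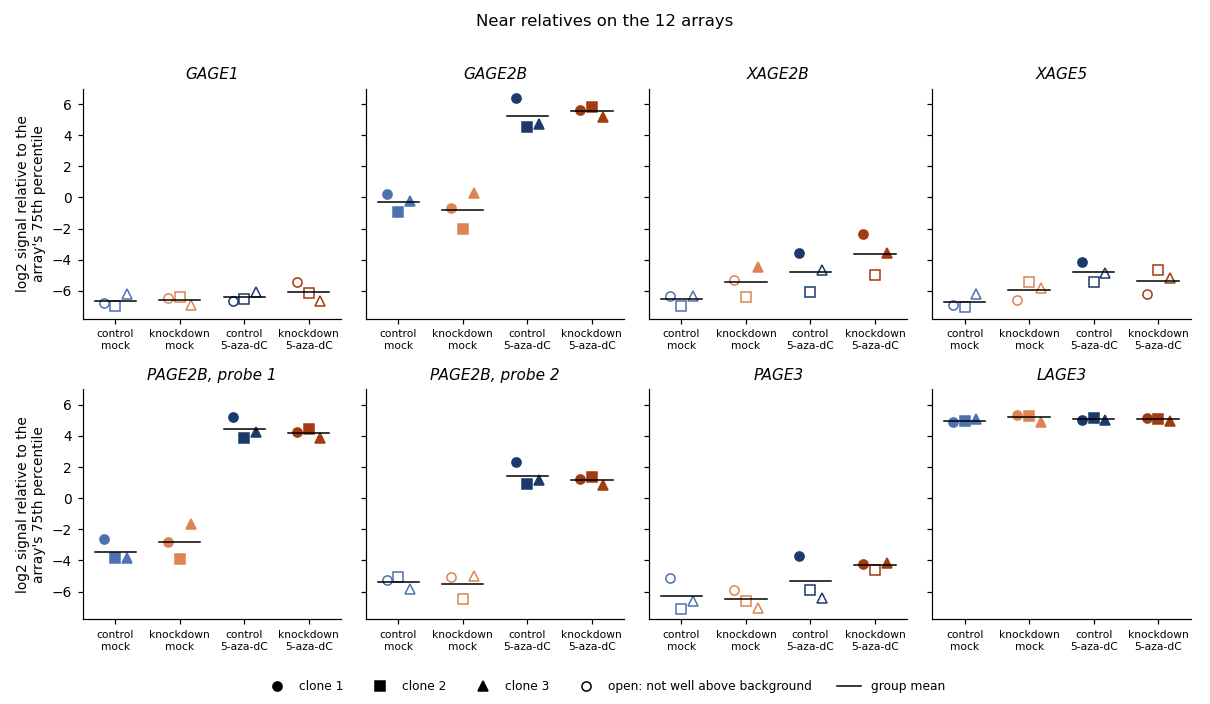
Log2 signal relative to the array's 75th percentile (y axis) of the near relatives on each array of the 4 groups (x axis), 1 panel per probe, with markers as for the genes above. GAGE2B and both PAGE2B probes rise after 5-aza-dC, LAGE3 stays between 4.88 and 5.36, and GAGE1, XAGE2B, XAGE5 and PAGE3 are mostly open markers at background.

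Other gene groups were read with 1 probe per gene over all clones. Of 48 other X-linked cancer-testis genes on the array, 34 were tested, and 20 rose and 0 fell with 5-aza-dC. Their median change was 2.37 beside -0.06 over all probes, and 7.24% of the 27281 probes tested were called higher. On the mock arrays alone 18 of them passed the filter on dim probes. The others entered with the treated arrays, where such genes are high, so the count and the median are descriptions. The changes were largest for RHOXF2 (10.73, SE 0.29), a germline homeobox gene, MAGEB2 (7.78, SE 0.35) and TKTL1 (7.02, SE 0.37). Of 30 autosomal germline genes on the array, 20 were tested, and 17 rose and 0 fell, with a median of 3.1. On the mock arrays alone 5 of them passed the filter, so this count is a description too. Of 11 genes for enzymes and readers of methylation at such promoters, DNMT3B, a de novo DNA methyltransferase, rose (1.30, SE 0.19, adjusted p = 0.0013) and 0 fell. None of these lists had a called gene between knockdown and control clones, mock or treated, or in the interaction. On the X chromosome 1018 probes outside the listed cancer-testis genes were tested, and 11.8% were called higher. Of the 98 such probes within 500000 bases of a member's probe (a window chosen after the data were seen), 3 were called higher (3.06%), namely TRO (3.68), CCNB3 (1.69) and IQSEC2 (1.00).

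The genes whose pattern was most like the mean of the 8 genes, standardised over the 12 arrays, were XLOC_009146 (Pearson r = 0.973), TUBA3C, an alpha tubulin of testis (0.972), MEI1, a meiosis gene (0.971), HAAO (0.969) and S100A16 (0.968), out of 18401 genes compared. These values describe 12 arrays that fall into mock and treated sets, and none of the 5 lies on the X chromosome.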

How the data were processed

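RNA of 6 Colo320DM clones was hybridised to 12 one-colour Agilent SurePrint arrays, read with Feature Extraction 10.7.3.1. The authors deposited 1 scanner file per array with an intensity for each spot, corrected for background but not normalized against the other arrays. Their series table repeats these intensities within 0.497%. Control and outlier spots (268 to 395 per array) were left out, log2 signals were centred on the array's 75th percentile over 58717 spots, and spots of a probe were averaged. Probes well above background (at least 50% of spots) on at least 3 arrays of a fit were tested with limma 3.58.1 in R 4.3.3 (lmFit, eBayes, two-sided, Benjamini-Hochberg over all probes, threshold 0.05), on the 2 groups compared, or on all 12 arrays for the mean effect and the interaction. The main fits had no term for clone or slide. A change against a group never well above background is a bound, from the higher of the array's lowest well-above signal and the probe's own. The same clone number marks the same clone by the labels, and deviations from group means correlated between its arrays (0.213 to 0.525). On data simulated for the control clones, 82 of 100 probes changed by 3 log2 units were recovered. Members and lists were chosen with earlier results of these data known. Alternatives were quantile normalization, normexp (offset 50) with quantile, the array median, the series table, no filter or a filter on every array, outlier spots kept, slide and replicate blocks, a fit of all 12 arrays, the methods' t-test and each clone left out. Named genes are the 8 members, TET1, near relatives on the array, at most 3 per other list and the 5 closest patterns. Python 3.11.15, pandas 2.3.3 and Biopython 1.88 were also used.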

Additional observations from a re-analysis of the deposited data

How the results depend on the processing

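Each gene had 1 probe, so counting any called probe gives the same values and was not run separately. The count in control clones, 3 in the report, was 5 with normexp and quantile normalization and 5 in the fit of all 12 arrays, and 0 with the filter on every array, by the methods' t-test, and with the replicate block and slide together. The filter left only PAGE1 to test there, so that 0 was fixed, and with the replicate block and slide 0 of 24630 probes were called while GAGE7, PAGE2 and XAGE1A still changed by 8.19 to 10.19. With the replicate block alone it was 3. Leaving out 1 clone gave 0 to 3. In knockdown clones the count of 5 was 0 with the filter on every array, which left only XAGE3 and PAGE1 to test, and 3 by the methods' t-test, and leaving out 1 clone gave 0 to 2. With the replicate block it was 5. Over all clones the count of 5 was 0 with the filter on every array, which left 1 of the 8 genes to test, 7 with the replicate block, and 5 to 6 with 1 clone left out. Between treated clones the count was 0 except without knockdown replicate 2, where PAGE1 made it 1 (range 0 to 1) in a fit that called 7884 of 24630 probes. The interaction stayed at 0 under every alternative, with the lowest adjusted p of the 8 genes at 0.60. PAGE1 between treated clones turned to -0.20 with the slide as a block and -0.011 with the slide term in the 12-array fit. Of the genes tested, 3 of 4 in mock cells and 7 of 8 after 5-aza-dC changed the sign of their difference between clone types under at least 1 alternative, and 2 of 8 the sign of the interaction, CTAG1A among them (-0.092 to 3.65 with 1 clone left out). No change with 5-aza-dC of GAGE7, XAGE1A, PAGE2, CTAG1A or CTAG2 changed sign under any alternative. The number of arrays, 3 per group, and signal at background in mock cells limited precision. Outlier spots kept or left out, 72 of 96 readings were well above background.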
